A study of Mus musculus with 2 samples.

Results

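The genes described here are 9 members of the interferon and antigen presentation system, B2m, H2-K1, H2-D1, Ifit1, Ifit3, Irf1, Bst2, Ifitm3 and Gbp2, chosen by name out of 25595 genes counted in either of 2 single-cell RNA-seq libraries. All 9 were counted in both libraries. The libraries came from mouse cerebral cortex dissociated together with its meninges, the membranes that cover the brain, and enriched by magnetic sorting with an antibody to CD140a, the protein made from Pdgfra. The first library was from N-PRα-KO mice, which carry Nestin-Cre and floxed Pdgfra alleles, and the second from WT mice of the strain C57BL/6J, for which no Cre or floxed allele is named. Nestin-Cre is best known for acting in the neural lineage. Age, sex, the number of animals and the strain background of the knockout mice are not given in the labels. The design text names the diversity of activated fibroblasts in a cortex with too little myelin as the question.

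MHC class I molecules present peptides from inside the cell to CD8 T cells. Each consists of a heavy chain, such as those made from H2-K1 and H2-D1, bound to β2-microglobulin, the product of B2m. Interferons raise these genes and a wider set of antiviral genes. Type I interferon acts mainly through interferon-stimulated response elements in their promoters, and interferon gamma through gamma-activated sites. In the brain, most parenchymal cells hold little class I protein at rest, whereas microglia, border macrophages and endothelial cells hold more. Ifit1 and Ifit3 encode antiviral proteins with tetratricopeptide repeats, and Irf1 encodes a transcription factor that drives many interferon gamma targets. Bst2 encodes tetherin, which holds budding virus particles at the cell surface. Ifitm3 encodes a membrane protein that blocks virus entry, and Gbp2 encodes a guanylate-binding GTPase.

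The members lie on 7 chromosomes of GRCm38 (positions from GENCODE M21). B2m is on chromosome 2 from 122147686 to 122153083, and Gbp2 on chromosome 3 from 142620602 to 142638008. Ifitm3 is on chromosome 7 from 141009586 to 141010770, Bst2 on chromosome 8 from 71534255 to 71537456, and Irf1 on chromosome 11 from 53770014 to 53778374. H2-K1, at 33996017 to 34000347, and H2-D1, at 35262730 to 35267499, are both on chromosome 17, in the MHC. Ifit3, at 34583531 to 34588731, and Ifit1, at 34640871 to 34650009, are neighbours on chromosome 19. Ifitm3, Bst2 and H2-K1 are on the minus strand and the others on the plus strand.

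The RefSeq promoter windows of the members, which run from 250 bases before to 50 bases after each start on GRCm38.p6, were searched on both strands for 3 motifs. The interferon-stimulated response element core, GAAA and GAAA with 2 free bases between them, was found in 6 of the 9 members and in 3.99% of all 27025 genes. A related element, GAA and GAAAC with 2 free bases between them, which can overlap that core, was found in H2-K1 and H2-D1 and in 2.01% of all genes. This related element was added after the data were seen, so its presence in these genes carries no weight of its own. The gamma-activated site TTCNNNGAA was found in Irf1, Bst2 and Ifitm3 and in 9.55% of all genes. The stretches below are in the direction of transcription. Capitals mark the core or the related element, and the gamma-activated site only where neither was found. They are shown because the members that share a motif did not share a direction between the libraries. Positions count from the start base as 0.

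B2m: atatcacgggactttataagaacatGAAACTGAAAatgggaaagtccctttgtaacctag
H2-K1: catctccacaGTTTCACTTCtgcacctaac
H2-D1: catctcctcaGTTTCACTTCtgcacctaac
Ifit1: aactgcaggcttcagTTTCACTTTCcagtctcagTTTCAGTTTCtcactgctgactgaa
Ifit3: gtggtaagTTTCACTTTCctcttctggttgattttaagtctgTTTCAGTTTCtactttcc
Irf1: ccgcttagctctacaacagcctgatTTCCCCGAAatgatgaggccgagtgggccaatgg
Bst2: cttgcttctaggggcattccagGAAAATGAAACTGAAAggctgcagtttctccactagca
Gbp2: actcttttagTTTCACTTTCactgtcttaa

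The capitals mark the response element core in B2m, Ifit1, Ifit3, Bst2 and Gbp2, the related element in H2-K1 and H2-D1, and the gamma-activated site in Irf1. The B2m stretch is chr2:122147523-122147582, with its core at -139 to -130. The Ifit1 stretch (chr19:34640770-34640828) and the Ifit3 stretch (chr19:34583365-34583424) each hold 2 copies of the core on the opposite strand. The Bst2 stretch (chr8:71537565-71537624, minus strand) holds 2 overlapping copies. Its gamma-activated site, at -136 to -128, is in capitals only where it overlaps the core. The Irf1 stretch is chr11:53769899-53769957 and the Gbp2 stretch chr3:142620594-142620623. The H2-K1 stretch (chr17:34000419-34000448, minus strand) and the H2-D1 stretch (chr17:35262933-35262962) come from windows of 60 bases around the element that differ at 1 base. The H2-D1 and Gbp2 stretches lie before the RefSeq start but overlap an exon annotated in GENCODE M21. In Ifitm3 the core was found after the start, at 2 to 11 and at 19 to 28. A match is a description of the letters and not evidence of binding.

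The files held 41982217 UMIs (unique molecules) in 8336 barcodes for N-PRα-KO and 43459947 in 11438 barcodes for WT. After doublet calls were removed, cells with 300 genes or more and no more than 25% of UMIs from mitochondrial genes numbered 4168 and 9896, with a median of 5775 and 3264 UMIs. The libraries shared 105 barcodes, 38 of them among the cells used. Xist had 15129 UMIs in N-PRα-KO and 54754 in WT, and Y-linked genes 3476 and 275, so the libraries differ in these sex-linked genes along with genotype, and their parts cannot be told apart. Pdgfra was at 715 and 865 CPM (UMIs scaled to a common total) in fibroblast-like cells and at 1964 and 4694 in oligodendrocyte lineage-like cells, of which 61 and 4005 were found. Markers of other cell types were found in each class, and their kind differed between the libraries. Over the 10 compared classes the summed level of 8 choroid plexus genes was 1542 to 2763 CPM, against 107 to 247 in WT. Cldn5, an endothelial junction gene, was at 55.9 to 95.3 CPM in the 9 non-endothelial classes of N-PRα-KO and at 0 to 8.43 in WT. In endothelial-like cells themselves Cldn5 was at 2825 and 274 CPM. Oligodendrocyte lineage markers went the other way, at 178 and 428 CPM in sum in fibroblast-like cells and 213 and 366 CPM in microglia-like cells. The sum of 10 endothelial genes also went the other way in fibroblast-like cells, at 1242 and 2733 CPM.

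Levels are CPM, the UMIs of a gene scaled to the total UMIs of its cell class, given as N-PRα-KO then WT, with 95% Poisson intervals. Log2 ratios set N-PRα-KO over WT, with 95% intervals. Classes were named from marker genes that include no member, and the members did not enter the clustering. There was 1 library per genotype, so no test between genotypes was possible, and the intervals describe counting error, with no measure of the spread among animals or dissociations. A gene is counted as lower or higher where the difference was at least 2-fold. In such summed counts, fewer cells with a transcript and less transcript per cell cannot be told apart.

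In fibroblast-like cells (942 N-PRα-KO and 505 WT cells), the antiviral genes Ifit1 and Ifit3, the regulator Irf1 and the GTPase gene Gbp2 had lower levels in N-PRα-KO. As measured, B2m and H2-K1 were slightly lower, H2-D1 and Ifitm3 were higher, and Bst2 lay at the same level within counting error. The class came from different clusters in each library, mostly clusters 4 (584 cells) and 18 (323 cells) in N-PRα-KO and clusters 14 (366 cells) and 22 (133 cells) in WT. Among the 7304 genes that reached 20 CPM in N-PRα-KO or WT, 8.28% were at least 2-fold lower and 16% at least 2-fold higher in N-PRα-KO. Of the members, 4 were at least 2-fold lower and 0 at least 2-fold higher. The level of 20 CPM was reached by 8 members, and Ifit1, Ifit3, Irf1 and Gbp2 reached it through the WT library alone, so their count carries no weight of its own. The median log2 ratio was -1.41 over the 6 interferon-induced members, -0.37 over the 3 MHC class I members and 0.00 over all genes.

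The Ifit1 level was 4.61 CPM (interval 3.11 to 6.58) in N-PRα-KO and 32.0 CPM (25.4 to 39.7) in WT, with a log2 ratio of -2.79 (-3.45 to -2.17). Ifit3 was at 13.2 CPM (10.6 to 16.3) and 40.2 (32.8 to 48.7), a log2 ratio of -1.60 (-2.03 to -1.18). Neither gene's intervals overlapped between the libraries. Irf1 was at 13.7 CPM (10.99 to 16.8) and 36.7 (29.6 to 44.9), a log2 ratio of -1.42. Gbp2 was at 10.6 CPM (8.25 to 13.4) and 28.1 (21.97 to 35.4), a log2 ratio of -1.40. These 4 genes rest on few molecules, between 30 and 103 UMIs in either library.

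B2m, the light chain shared by all class I molecules, was at 402 CPM (387 to 418) and 546 (518 to 575) in fibroblast-like cells, a log2 ratio of -0.44 (-0.53 to -0.35). The B2m ratio became -0.14 once the trend of the ratios on GC content was removed. H2-K1 was at 47.3 CPM (42.2 to 52.9) and 61.2 (52.0 to 71.6), and its log2 ratio of -0.37 had an interval from -0.65 to -0.08. The H2-K1 ratio was -0.71 with the GC trend removed and 0.08 with each cell thinned to 2000 UMIs. The other heavy chain went the other way as measured. H2-D1 was at 89.3 CPM (82.2 to 96.9) and 60.8 (51.7 to 71.2), a log2 ratio of 0.55 (0.30 to 0.82). Ifitm3 was at 403 CPM (388 to 419) and 289 (269 to 311), a log2 ratio of 0.48 that became -0.24 once the trend of the ratios on GC content was removed. Bst2 was at 16.4 CPM (13.5 to 19.9) and 16.8 (12.1 to 22.6), with an interval of the log2 ratio from -0.55 to 0.52.

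The shares of positive cells, after each cell was thinned to 2000 UMIs (937 N-PRα-KO and 462 WT cells), gave the same order for the antiviral genes. Ifit3 had a UMI in 15 N-PRα-KO cells (1.60%, interval 0.899% to 2.63%) and in 30 WT cells (6.49%, 4.42% to 9.14%). Ifit1 had a UMI in 4 cells (0.427%) and 14 cells (3.03%). Without thinning, the shares for Ifit1 were 2.34% and 6.93%. The median cell held 6218.5 and 4322 UMIs. Detection of the 2 neighbouring genes coincided in some WT cells: of the 30 WT cells with an Ifit3 UMI, 6 also had an Ifit1 UMI (20%, interval 7.71% to 38.6%), against 8 of the other 432 (1.85%, 0.803% to 3.62%). In N-PRα-KO, 0 of 15 Ifit3-positive cells had an Ifit1 UMI, which still allows a share of up to 21.8%. In neuronal lineage-like cells, where both genes were lowest or nearly so, 0 of 249 and 0 of 599 thinned cells had a UMI of either gene, which allows up to 1.47% and 0.614%. Their median cell held 4317 and 2557.5 UMIs. The N-PRα-KO share of Ifit1 in fibroblast-like cells lay under that limit and cannot be told from background.

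Several other measures moved with the fibroblast difference. The summed level of 18 immediate early genes, which respond quickly to stimulation and to tissue dissociation, was 3979 CPM in N-PRα-KO and 17958 CPM in WT. Fos alone was at 559 and 4470 CPM. The median mitochondrial share was 13.5% and 16.3%. Summed microglia markers (9 of 9 detected in both) were at 913 and 634 CPM, endothelial markers (10 of 10) at 1242 and 2733 CPM, and monocyte, dendritic cell and neutrophil markers (8 and 3 of 10) at 12.3 and 7.41 CPM. Lymphocyte markers were nearly absent, at 3.84 and 1.17 CPM, and the T cell gene Cd3e had 2 and 0 UMIs. With a mitochondrial limit of 15%, the log2 ratio of Irf1 in fibroblast-like cells was -0.57 and the median of the 6 interferon-induced members -0.92. The part of these measures in the result was not tested.

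**Figure D1:**
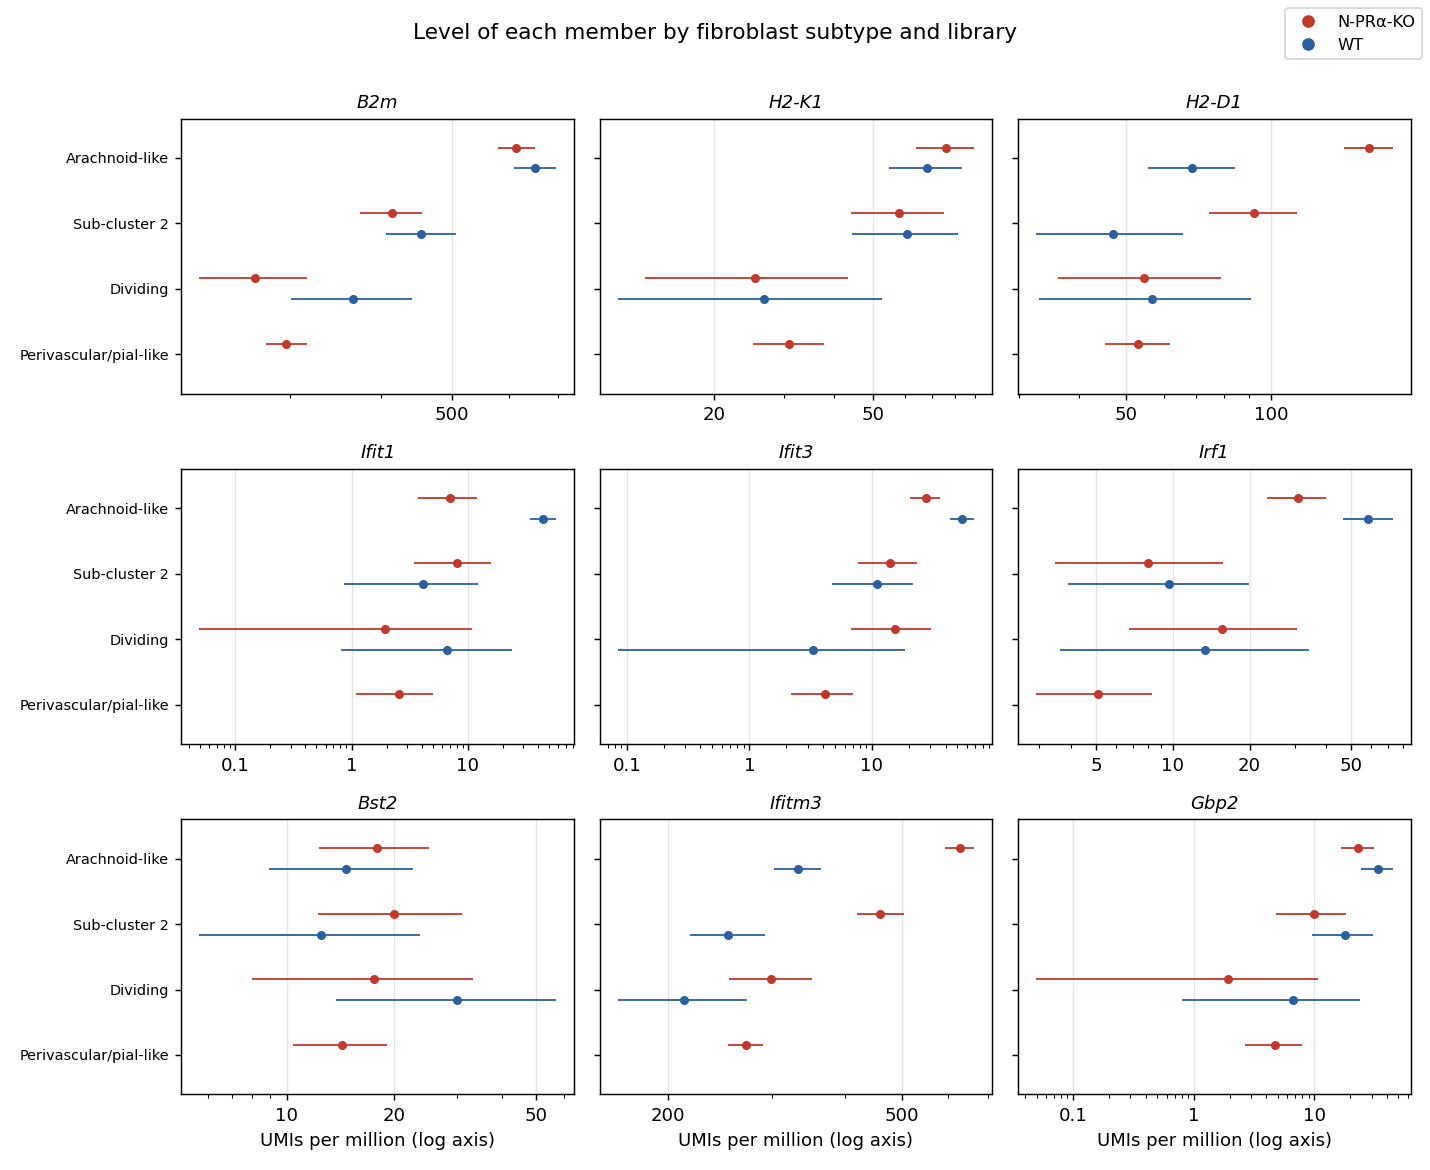
Level of each member in CPM (log axis) by fibroblast subtype, for N-PRα-KO (red) and WT (blue). Points are sums over cells and bars are 95% Poisson intervals, and the perivascular or pial-like subtype is drawn for N-PRα-KO only because WT held 10 such cells. Ifit1, Ifit3 and Irf1 in WT stand at 44.6, 54.8 and 58.4 in arachnoid-like fibroblasts and at 11.1 or less in sub-cluster 2.

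The members were unevenly spread over fibroblast subtypes, and the subtypes over the libraries. When fibroblast-like cells were clustered again with each gene centred within its library, arachnoid-like fibroblasts made up 30.9% of the class in N-PRα-KO (291 cells) and 58.4% in WT (295 cells). Perivascular or pial-like fibroblasts made up 49.8% in N-PRα-KO (469 cells) and 1.98% in WT (10 cells). Sub-cluster 2, which stayed unnamed and was led by Mfap5, Eln and Col1a1, held 140 and 144 cells, and dividing cells numbered 42 and 39. A last sub-cluster of 17 WT cells, led by Lhfpl3, Cntn1 and Vxn, also stayed unnamed. Most arachnoid-like cells sat in sub-cluster 3 in N-PRα-KO (265 cells) and in sub-cluster 1 in WT (284 cells).

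Within the N-PRα-KO library, the interval of the log2 ratio of arachnoid-like over perivascular or pial-like fibroblasts lay above 0 for 8 of the 9 members, all but Bst2. The share over all genes was not computed for this or the other subtype pairs, so such counts carry no weight of their own. Ifit3 was at 27.6 CPM against 4.13, Irf1 at 30.9 against 5.08, and Gbp2 at 23.3 against 4.77. B2m was at 613 CPM against 297, and H2-D1 at 159 against 53.1. Arachnoid-like fibroblasts also stood above sub-cluster 2 for 6 members in N-PRα-KO and 5 in WT. In WT the steepest of these was Ifit1, at 44.6 CPM (34.1 to 57.2) against 4.14 from 3 UMIs. Ifit3 was at 54.8 against 11.1 CPM and Irf1 at 58.4 against 9.67 in the same pair. The arachnoid-like cells thus held 61 of the 82 Ifit1 UMIs, 75 of the 103 Ifit3 UMIs and 80 of the 94 Irf1 UMIs of WT fibroblast-like cells. In N-PRα-KO they held 13 of 30, 51 of 86 and 57 of 89. The 17 unnamed WT cells held 16 Ifit1 UMIs and 19 Ifit3 UMIs, and without them the log2 ratios over the whole class were -2.55 for Ifit1 and -1.38 for Ifit3.

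Compared within arachnoid-like fibroblasts, the libraries differed less for most of these genes. Ifit1 was at 7.04 CPM (3.75 to 12.04) in N-PRα-KO and 44.6 in WT, a log2 ratio of -2.66 (-3.65 to -1.78), close to the value over all fibroblast-like cells. Ifit3 had a log2 ratio of -0.99 (-1.53 to -0.46) and Irf1 one of -0.92 (-1.44 to -0.41). Over the whole class these ratios had been -1.60 and -1.42. Gbp2 was at 23.3 and 33.6 CPM, and the interval of its log2 ratio ran from -1.16 to 0.10. Here 1 member was at least 2-fold lower, Ifit1, against 8.41% of all genes, and 1 at least 2-fold higher, H2-D1, against 15.1%. Ifit1 reached 20 CPM in WT alone, so its count carries no weight of its own. The median over the 6 interferon-induced members was -0.73.

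B2m and H2-K1 were at similar levels in both libraries in arachnoid-like fibroblasts, and H2-D1 was higher in N-PRα-KO. B2m was at 613 and 651 CPM, with a log2 ratio of -0.09 (-0.21 to 0.04). H2-K1 was at 75.8 and 67.9 CPM, with an interval from -0.23 to 0.55. H2-D1 was at 159 (142 to 178) and 68.7 CPM (55.5 to 84.0), with a log2 ratio of 1.21 (0.87 to 1.56), and Ifitm3 at 627 and 332 CPM, a log2 ratio of 0.92 that became 0.19 with the GC trend removed. Immediate early genes still differed in this subtype, at 7337 and 23436 CPM in sum, and their part was not tested.

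In sub-cluster 2 no lower level was seen for Ifit1 or Ifit3. Only 5 members reached 20 CPM there, without Ifit1, Ifit3, Irf1 and Gbp2. Of those 5, 0 were at least 2-fold lower or higher, against 8.91% and 16.6% of genes. With 3 WT UMIs, and counts under 3 set to 3, a 2-fold lower Ifit1 could not have been returned. Ifit1 was at 8.01 and 4.14 CPM, from 8 and 3 UMIs, and Ifit3 at 14.0 and 11.1 CPM, from 14 and 8 UMIs. Their log2 ratios, 0.95 and 0.34, had intervals that reached from -1.11 to 3.50 and from -1.01 to 1.80. Irf1 was at 8.01 and 9.67 CPM. At this depth a difference in these genes was not detectable in sub-cluster 2, while H2-D1 (92.1 and 47.0 CPM) and Ifitm3 (459.7 and 253 CPM) were again above WT as measured. Immediate early genes summed to 2986 and 12912 CPM there.

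**Figure D2:**
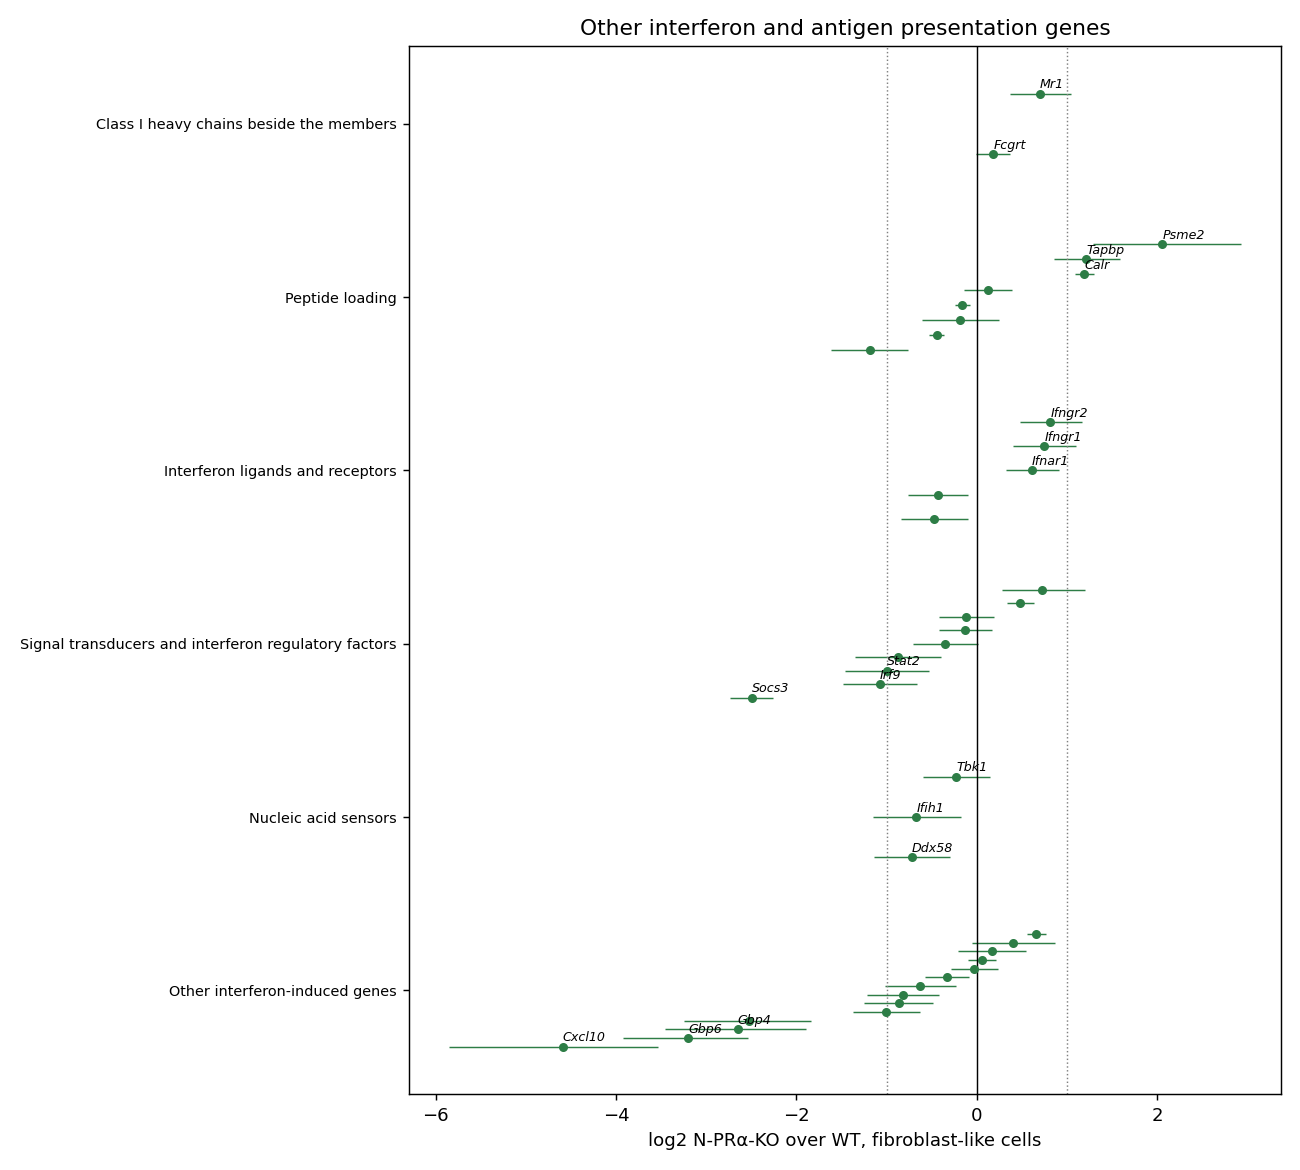
Log2 of the CPM in N-PRα-KO divided by that in WT, in fibroblast-like cells for the other listed genes that reached 20 CPM in either genotype, grouped by role. Points are genes and bars are 95% intervals, with dotted lines at 2-fold; Cxcl10 (-4.59), Gbp6 (-3.20) and Gbp4 (-2.65) lie far to the left, and the receptor genes lie within the dotted lines.

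Other genes of the pathway were read from lists drawn up by role. Their values are as measured in each class, because the GC trend was removed for the members alone. Across all genes the ratio rose with GC content. The Spearman rho was 0.56 in fibroblast-like, 0.58 in microglia-like and 0.60 in endothelial-like cells. Among 41 other interferon-induced genes, 14 reached 20 CPM in fibroblast-like cells. Of these, 5 were at least 2-fold lower and 0 higher, against 8.28% and 16% of all genes. Of these 5, Cxcl10, Gbp6, Gbp4 and Irgm2 reached 20 CPM in WT alone, which fixed their direction in advance, and Gbp7 reached it in both. The median log2 ratio over the 14 genes was -0.73, against 0.00 over all genes. Cxcl10, a chemokine that attracts activated T cells, was at 1.23 and 29.6 CPM. The guanylate-binding genes Gbp6 and Gbp4 were at 3.69 and 33.9 CPM and at 3.23 and 20.3 CPM. Ifit2, the relative of Ifit1 and Ifit3, was at 22.4 and 34.7 CPM, and Ifitm2 was higher in N-PRα-KO, at 556 and 352 CPM, as was Ifitm3.

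Of 15 signal transducers and regulatory factors, 9 reached 20 CPM, and 3 of these were at least 2-fold lower, against 8.28% of all genes. Socs3, a feedback inhibitor of cytokine signalling, was at 32.3 and 182 CPM. It is also on the list of immediate early genes summed above, so it is not separate from that difference. Irf9 was at 17.2 and 36.3 CPM and Stat2 at 13.8 and 27.7 CPM, both parts of the type I interferon response, and both reached 20 CPM in WT alone. Jak1, the kinase used by both interferon receptors, was at 242 and 174 CPM. The 5 receptor genes at this level stayed within 2-fold. Ifngr2 was at 59.6 and 33.9 CPM, Ifngr1 at 56.9 and 33.9 CPM, and Ifnar1 at 73.8 and 48.3 CPM. The 3 nucleic acid sensors at this level, Ddx58, Ifih1 and Tbk1, also stayed within 2-fold, with log2 ratios of -0.72, -0.67 and -0.23.

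Genes that load peptide onto class I molecules did not move as a block. Of 17 listed, 8 reached 20 CPM, with 1 at least 2-fold lower and 3 at least 2-fold higher, against 8.28% and 16% of all genes. The higher genes were Psme2, a proteasome activator (24.3 and 5.85 CPM), Tapbp, which encodes tapasin (67.8 and 29.2 CPM), and Calr, the calreticulin gene (810.5 and 355 CPM). The lower gene was the peptide-trimming Erap1 (15.2 and 34.7 CPM). Psme2 reached 20 CPM in N-PRα-KO alone and Erap1 in WT alone. Of 12 other class I heavy chain genes, 2 reached 20 CPM, Mr1 at 57.6 and 35.5 CPM and Fcgrt at 140.5 and 124 CPM. No MHC class II gene of 7 did.

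**Figure D3:**
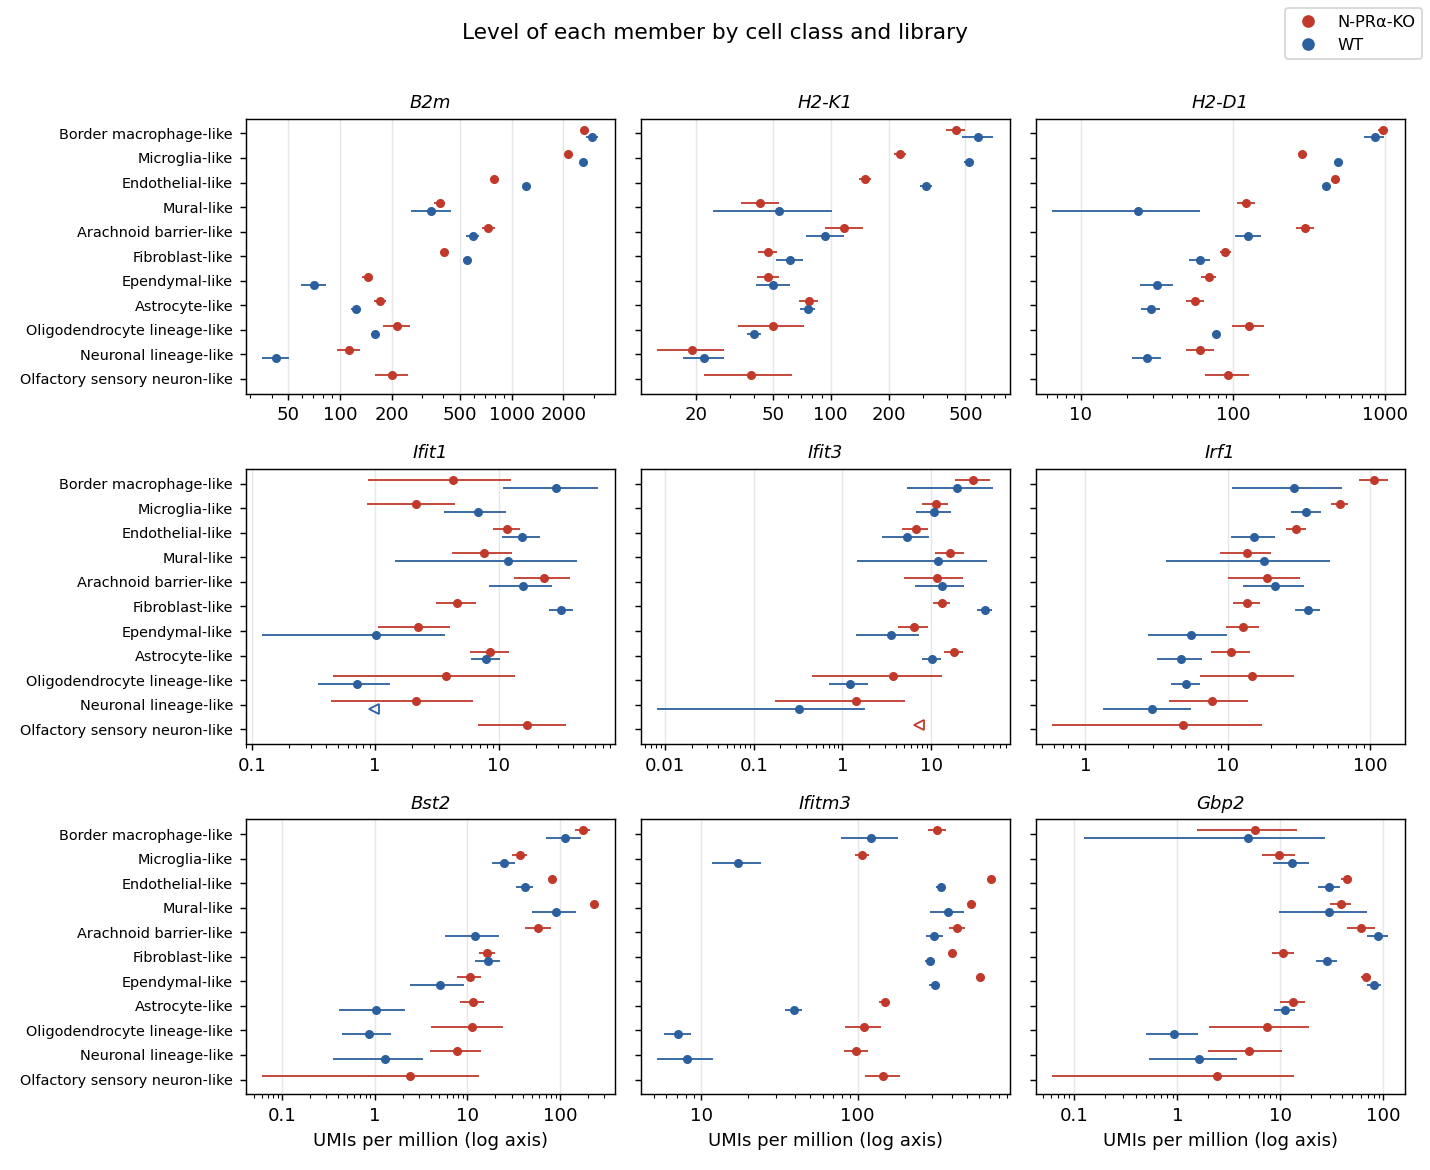
Level of each member in CPM (log axis) in 11 cell classes for N-PRα-KO (red) and WT (blue). Points are sums over cells, bars are 95% Poisson intervals, and open triangles mark 3 counts where no UMI was seen. B2m, H2-K1 and H2-D1 are highest in border macrophage-like cells in both libraries (B2m 2652 and 2941), while Ifitm3 and Gbp2 peak in vascular, ependymal and arachnoid barrier-like cells.

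Across cell classes the MHC class I members followed the immune and vascular classes in both libraries. B2m was highest in border macrophage-like cells (2652 and 2941 CPM), then microglia-like (2121 and 2599) and endothelial-like cells (784 and 1205), and lowest in neuronal lineage-like cells (112 and 42.2). The intervals of the leading 3 classes did not overlap within either library, and in N-PRα-KO the endothelial-like and arachnoid barrier-like (730 CPM, 667 to 796) intervals did. H2-K1 had the same leading 3 classes, at 446.5, 229 and 151 CPM in N-PRα-KO and 580.4, 523 and 313 CPM in WT. In WT the intervals of border macrophage-like and microglia-like cells overlapped for H2-K1. For H2-D1 border macrophage-like cells led in both (968 and 854 CPM), but microglia-like cells came next in WT (493 CPM), and stood below endothelial-like and arachnoid barrier-like cells in N-PRα-KO (286 CPM). H2-D1 in endothelial-like cells was at 465 and 408 CPM.

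The interferon-induced members peaked in different classes. In WT, Ifit1, Ifit3 and Irf1 were each highest in fibroblast-like cells, with intervals that overlapped those of the next class. Without the 17 unnamed cells Ifit1 was at 27.1 CPM there, under border macrophage-like cells, so that its order rests on them. The next class was border macrophage-like cells for Ifit1 (29.3 CPM from 6 UMIs) and Ifit3 (19.5 CPM from 4 UMIs), and microglia-like cells for Irf1 (35.8 CPM). The N-PRα-KO order was different, with none of them led by fibroblast-like cells. Irf1 was highest in border macrophage-like cells (107 CPM, 83.9 to 134), apart from the next class. Ifit3 was highest there too (29.9 CPM, 18.5 to 45.6, from 21 UMIs), but overlapped astrocyte-like cells (18.1 CPM, 14.1 to 22.9). Ifit1 led in arachnoid barrier-like cells (23.3 CPM, 13.3 to 37.8), and its interval overlapped those of endothelial-like cells (11.6 CPM) and of the 51 olfactory sensory neuron-like cells found in this library alone. Bst2 peaked in mural-like cells in N-PRα-KO (234 CPM) and in border macrophage-like cells in WT (112 CPM, overlapping mural-like cells at 89.5). Gbp2 led in ependymal-like cells in N-PRα-KO (68.0 CPM) and in arachnoid barrier-like cells in WT (87.9 CPM), with overlap between these classes in both libraries.

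**Figure D4:**
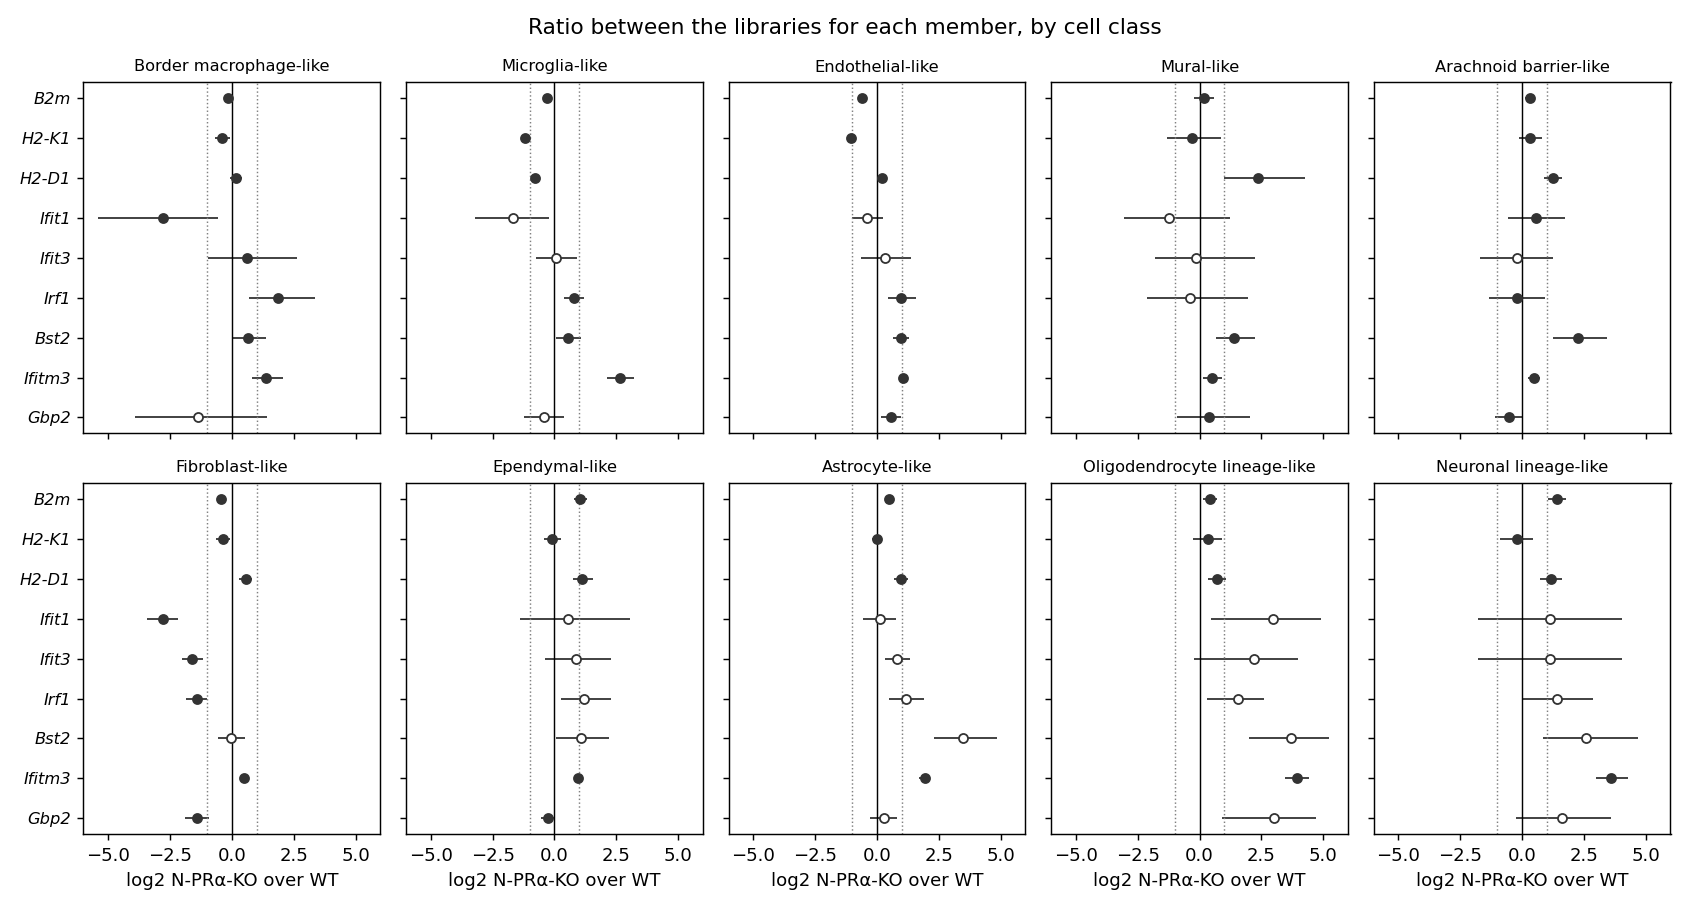
Log2 of the CPM in N-PRα-KO divided by that in WT, for each member in 10 cell classes. Points are ratios of summed UMIs with 95% intervals, filled where the gene reached 20 CPM in either library, with counts under 3 set to 3 and dotted lines at 2-fold. Ifitm3 lies right of 0 in each class (left of 0 in fibroblast-like, arachnoid barrier-like and mural-like cells once the GC trend is removed) and Ifit1, Ifit3, Irf1 and Gbp2 lie left of 0 in fibroblast-like cells.

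Outside the fibroblasts the direction of several members differed from theirs. Irf1 had an interval above 0 in 7 of 10 classes and below 0 in fibroblast-like cells alone. It was at 61.1 and 35.8 CPM in microglia-like cells (log2 ratio 0.77, interval 0.37 to 1.19) and at 30.3 and 15.3 CPM in endothelial-like cells (0.98, 0.45 to 1.56). In border macrophage-like cells it was at 107 and 29.3 CPM, from 75 and 6 UMIs. With the GC trend removed the Irf1 ratio was 0.38 in microglia-like, 0.55 in endothelial-like, 0.82 in ependymal-like, 0.99 in neuronal lineage-like and 1.12 in oligodendrocyte lineage-like cells, each smaller than the half-width of its interval. Bst2 had an interval above 0 in 9 of 10 classes. It was at 81.2 and 41.9 CPM in endothelial-like cells and at 234 and 89.5 CPM in mural-like cells, log2 ratios of 0.95 and 1.39. With the GC trend removed, the Bst2 ratio was -0.27 in microglia-like, -0.11 in border macrophage-like and -0.82 in fibroblast-like cells, and 0.07 in endothelial-like cells, where the reported difference was thus not kept. In ependymal-like cells it was 0.28, against 1.07 as measured.

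Ifitm3 had an interval above 0 in 10 of 10 classes, with log2 ratios from 0.48 in fibroblast-like cells to 3.95 in oligodendrocyte lineage-like cells. The 61 and 4005 cells of that class differed in make-up: 47 of the N-PRα-KO cells were in cluster 32 and 2932 of the WT cells in cluster 0, and the class's own markers summed to 43497 and 13391 CPM. In endothelial-like cells, where it was highest in N-PRα-KO, it was at 711 (689 to 733) and 339 CPM (316 to 365). With the GC trend removed the log2 ratio was 0.27 there, against 1.07 as measured, and 0.25 in ependymal-like cells, against 0.97. After the same step it was below 0 in fibroblast-like, arachnoid barrier-like and mural-like cells, at -0.24, -0.29 and -0.08. The steepest ratios were in classes where WT had almost none: neuronal lineage-like cells were at 98.1 and 8.12 CPM, oligodendrocyte lineage-like cells at 109.9 and 7.10, and microglia-like cells at 107 and 17.1. The Cldn5 level in the same cells was 60.4 and 1.62, 55.9 and 1.87, and 66.6 and 1.04 CPM. Cldn5 also differed in endothelial-like cells, at 2825 and 274 CPM, so it does not measure stray RNA alike in both libraries. The part of RNA from other cells in these ratios was not tested.

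Microglia-like cells (570 and 614) had lower heavy chain levels in N-PRα-KO. H2-K1 was at 229 (213 to 246) and 523 CPM (491 to 556), with a log2 ratio of -1.19 (-1.33 to -1.05), and H2-D1 at 286 and 493 CPM, a log2 ratio of -0.79 (-0.92 to -0.65). B2m had a log2 ratio of -0.29, which became 0.04 with the GC trend removed. Of the members, 6 reached 20 CPM in this class, and 1 was at least 2-fold lower against 9.5% of all genes and 1 at least 2-fold higher against 16.3%. The lower member was H2-K1. The higher member was Ifitm3, which reached 20 CPM in N-PRα-KO alone, so its count carries no weight of its own. Of 12 peptide-loading genes at 20 CPM in the same cells, 4 were at least 2-fold higher, against the same 16.3%, and 0 lower, with 3 of the 12 log2 ratios below 0. The higher genes included the immunoproteasome subunit Psmb8 (91.5 and 26.4 CPM) and Tapbp (170.0 and 51.8 CPM), as measured, with the GC trend not removed. Cxcl10 was at 52.0 and 340.5 CPM. Summed immediate early genes were at 11084 and 25911 CPM, border macrophage markers at 169 and 441 CPM and division genes at 622 and 2346 CPM, and their part was not tested.

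Endothelial-like cells (536 and 347) had less H2-K1, at 151 and 313 CPM (log2 ratio -1.06, -1.20 to -0.91), and less B2m (log2 ratio -0.62, -0.69 to -0.55). H2-D1 was slightly higher as measured, with a log2 ratio of 0.19 (0.08 to 0.30). With the GC trend removed the ratios were -1.43 for H2-K1, -0.28 for B2m and 0.06 for H2-D1, so the H2-D1 difference was not kept. Of 7 members at 20 CPM, 1 was at least 2-fold lower, against 9.45% of genes, and 1 at least 2-fold higher, against 17.2%. Of 11 peptide-loading genes at 20 CPM, 3 were at least 2-fold higher, Psmb8 (34.9 and 9.02 CPM), Tapbp (138 and 37.4 CPM) and Psme2 (33.8 and 8.11 CPM), and 0 lower, with 4 log2 ratios below 0. Of 5 other heavy chain genes, 2 were higher, among them the non-classical H2-T23 (34.3 and 4.96 CPM). Psmb8, Psme2 and H2-T23 reached 20 CPM in N-PRα-KO alone, and the GC trend was not removed for genes other than the members. Of 21 other interferon-induced genes, 4 were at least 2-fold lower and 3 higher, against the same 9.45% and 17.2% of all genes. Immediate early genes differed little here, at 4181 and 5798 CPM in sum.

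In the remaining classes the class I members were mostly level or higher in N-PRα-KO. Border macrophage-like cells were the exception, with log2 ratios of -0.15 for B2m (0.25 with the GC trend removed) and -0.38 for H2-K1. Ependymal-like cells had B2m at 145 and 70.6 CPM and neuronal lineage-like cells at 112 and 42.2 CPM, log2 ratios of 1.04 and 1.41. In the same cells the microglia marker P2ry12 was at 47.9 and 20.2 CPM and at 35.5 and 16.2 CPM. Pdgfra went the other way, at 25.8 and 195 CPM and at 23.5 and 169 CPM. How much of the B2m difference came from stray RNA was not tested. Astrocyte-like cells had a B2m log2 ratio of 0.47 and H2-K1 at 76.9 and 76.2 CPM. In arachnoid barrier-like cells (62 and 117) H2-D1 was at 299 and 126 CPM and Bst2 at 58.1 and 12.04 CPM. Of the members at 20 CPM, 1 was at least 2-fold lower in border macrophage-like cells (Ifit1, from 3 and 6 UMIs), against 16.2% of genes, and 2 were higher, against 16.3%. In the other 6 of these classes 0 members were at least 2-fold lower. The share of all genes at least 2-fold lower was 10.4% in arachnoid barrier-like, 13.4% in oligodendrocyte lineage-like, 7.82% in astrocyte-like, 6.12% in ependymal-like, 13.8% in mural-like and 6.05% in neuronal lineage-like cells. Members at least 2-fold higher numbered 2 in arachnoid barrier-like cells (17.3% of genes), 2 in ependymal-like cells (14.5%), 2 in mural-like cells (11.7%) and 3 in neuronal lineage-like cells (16.8%). They numbered 1 in astrocyte-like cells (13.9%) and 1 in oligodendrocyte lineage-like cells (17.5%), Ifitm3 in both. Some of the counted members reached 20 CPM in 1 library alone, so their counts carry no weight of their own. In N-PRα-KO alone these were Ifitm3 in neuronal lineage-like and oligodendrocyte lineage-like cells and Bst2 in arachnoid barrier-like cells. In WT alone it was Ifit1 in border macrophage-like cells.

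**Figure D5:**
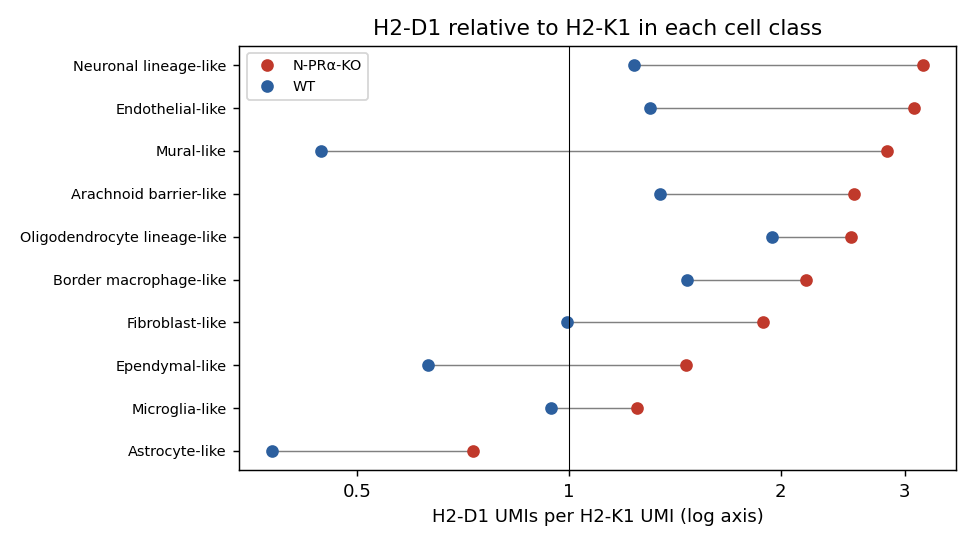
H2-D1 UMIs per H2-K1 UMI (log axis) in 10 cell classes, for N-PRα-KO (red) and WT (blue), joined within each class. Each N-PRα-KO point lies to the right of its WT point, with values of 1.89 and 0.994 in fibroblast-like cells and 3.09 and 1.30 in endothelial-like cells.

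The balance between the heavy chain genes differed between the libraries in each class compared. H2-D1 UMIs per H2-K1 UMI were 1.89 in N-PRα-KO and 0.994 in WT fibroblast-like cells, 1.25 and 0.944 in microglia-like cells, and 3.09 and 1.30 in endothelial-like cells. Both are counted near the 3′ end of the transcript, so length enters little into this ratio. The log2 ratio of H2-D1 exceeded that of H2-K1 in 10 of 10 classes, by 0.37 in oligodendrocyte lineage-like cells to 2.67 in mural-like cells, the latter from 4 WT UMIs. The GC content of the last 500 bases was 44.2% for H2-D1 and 46.8% for H2-K1, and the difference held its sign in each class with the GC trend removed, at 0.58 or more. Of the 50-base stretches in those last 500 bases, 9.53% in H2-D1 were shared with another gene, and 0.443% in H2-K1 were shared with H2-D1. These heavy chains vary between mouse strains, and strain, sex, preparation and genotype cannot be told apart in this ratio.

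Over the 21 class-by-library sums, which share library and depth, the class I members resembled each other in log2 level. The Pearson correlation was 0.90 between B2m and H2-K1, 0.89 between B2m and H2-D1 and 0.86 between the heavy chains. Irf1 followed B2m at 0.86. Gbp2 followed none of the class I members, at 0.02, 0.01 and -0.05, and was nearest to Ifitm3, at 0.70. Ifit1 and Ifit3 were at 0.51. Among 12337 genes, the pattern most like B2m was that of Lgals8 (0.94), for H2-K1 Dennd2c (0.94) with the heavy chain gene H2-M3 next (0.93), and for H2-D1 Sp100 (0.92). Irf1 was most like Rnf130 (0.89), with the immunoproteasome gene Psmb9 next (0.88). The nearest genes were Anxa7 for Ifit1 (0.79), Lamp2 for Ifit3 (0.80), Stk24 for Bst2 (0.91), Ech1 for Ifitm3 (0.94) and Plpp1 for Gbp2 (0.91).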

How the data were processed

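Single cells were profiled with BD Rhapsody whole-transcriptome chemistry, per the labels' protocols. The deposited files hold raw UMI counts for each barcode. The authors' pipeline is named per the file headers as BD Rhapsody WTA Analysis Pipeline, version 1.10 for N-PRα-KO and 1.10.1 for WT, with GRCm38 and GENCODE M19. No aligner is named in these sources. The pipeline run dates differ between the libraries.

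Kept were cells that reached 300 genes and did not pass 25% mitochondrial UMIs. Scrublet (scanpy 1.11.5) called 28 N-PRα-KO and 173 WT cells, which were removed. For clustering, each cell was scaled to 10000 UMIs on a log scale. Both libraries were clustered together (2000 variable genes per library without the members and pathway genes, 30 components, 20 neighbours, leidenalg 0.10.2, resolution 1), giving 38 clusters. A cluster was named "X-like" from a marker list where the mean log2 fold was at least 0.5 with a lead of 0.5 and at least 3 markers. Classes with 50 cells in both libraries were compared. Fibroblast-like cells were clustered again (1000 variable genes centred per library, 20 components, resolution 0.5, fold and lead 0.25).

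UMIs were summed per class, giving CPM with exact Poisson intervals, shares with exact Clopper-Pearson intervals and ratios with exact conditional intervals, at 95%. Counts under 3 were set to 3. Named were all members and, for each pathway list and class, up to 3 genes at 20 CPM with the largest ratios; Erap1, Ifit2, Ifitm2 and Jak1 were added after their values were seen. Likeness used log2(CPM + 10). Levels are molecules counted at the 3′ end, and 14.9% of 50-base stretches at the end of Ifit3 are shared with Ifit3b and 14.0% of those of Ifitm3 with pseudogene models. The interval and counting code was tested on simulated data.

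The members and lists were chosen with earlier results of these data known. Decided after seeing the clusters were that a haemoglobin-led cluster of 279 WT cells is not described, that the naming of fibroblast sub-clusters also counts markers of other classes (which left 17 WT cells unnamed), the related class I motif, and the added alternatives in the closing section.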

Additional observations from a re-analysis of the deposited data

Results flagged for a closer look

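The log2 ratio of Irf1 was 1.87 in border macrophage-like cells and -1.42 in fibroblast-like cells, opposite directions under the same contrast, each from 1 library per genotype. The border macrophage value rests on 6 WT UMIs, and the difference between the classes was not tested.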

How the results depend on the processing

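No paired analysis was possible because there was 1 library per genotype and no test. The median log2 ratio of the 6 interferon-induced members in fibroblast-like cells (-1.41) stayed between -1.61 and -1.16 under 15 of 18 alternatives. It was -0.92 with a mitochondrial limit of 15%, -0.73 in arachnoid-like fibroblasts only and 0.52 in fibroblast sub-cluster 2 only, where Ifit1 was at 0.95 and Ifit3 at 0.34. The median log2 ratio of the 3 MHC class I members in fibroblast-like cells (-0.37) stayed between -0.42 and -0.14 under 15 of 18. It was 0.081 with cells thinned to 2000 UMIs, 0.16 in arachnoid-like fibroblasts only and -0.066 in sub-cluster 2 only. These subtype, mitochondrial 15% and precursor-gene sub-cluster alternatives were chosen after seeing the data. The subsets hold fewer cells, and other causes were not tested. A mitochondrial limit of 10% could not be run for fibroblast-like cells, with 80 N-PRα-KO and 11 WT cells left. Over single members and classes, 997 of 1089 recomputed ratios lay inside the interval of the reported ratio, and 46 changed sign, 11 of them with the GC trend removed. Of the ratios past 2-fold, 2 changed sign, those of Ifit1 and Ifit3 in sub-cluster 2 above. They rest on 8 and 3 UMIs for Ifit1 and on 14 and 8 for Ifit3. Their intervals ran from -1.11 to 3.50 and from -1.01 to 1.80, so neither sign was settled. Removing the GC trend moved 29 of 90. Across genes the ratio followed the GC content of the transcript end, with a Spearman rho of 0.56 in fibroblast-like cells. Median-of-ratios scaling raised each log2 ratio by 0.067 in fibroblast-like cells and by up to 0.21 in astrocyte-like cells. Depth limits Ifit1, Ifit3 and Gbp2 in classes with few UMIs.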
